A study of Mus musculus with 22 samples.

Results

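Hepatocytes, the parenchymal cells of the liver, were taken from pooled organ libraries of aged mice as the barcodes that carried a set of liver transcripts. A barcode had to hold at least 200 detected genes, at most 60% of its UMIs (unique molecular identifiers, each counting 1 captured transcript) from mitochondrial genes, at least 10 UMIs of Alb, a UMI of at least 4 of the 8 genes Apoa1, Apoa2, Ttr, Serpina1c, Fgb, Ahsg, Cps1 and Cyp2e1, and no UMI of Ptprc, Pecam1 or Miox, which mark leukocytes, endothelium and kidney proximal tubule. Of 179929 barcodes in the series, 183 met these limits. All of them lay in the 11 organ libraries, of whose 151494 barcodes within the gene and mitochondrial limits they made up 0.121%. No hepatocyte was found among the 2501 barcodes of the 10 blood libraries, which allows a share of up to 0.120%, or among the 752 of the library of blood mononuclear cells, which allows up to 0.399%. Members were thus chosen by their own UMI levels of these genes, which are given as a description, with no test.

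Each organ library pooled kidney, liver, lung, stomach and either epididymis or uterus of 1 mouse, with the organs tagged by antibody hashtags that were not used here. All mice carried Prom1-CreERT2 and Rosa26ZSG, so that tamoxifen switched on Cre recombinase and a ZsGreen lineage tag in cells with an active Prom1 promoter, and het and null mice also carried 1 or 2 conditional alleles of Nalcn, a sodium leak channel. Because Cre depended on that promoter, a hepatocyte of a null mouse need not have lost Nalcn. The wt libraries came from males of 571 days (replicates 1 and 2) and 608 days (replicate 3) and from females of 611 and 654 days (replicates 4 and 5). Both het libraries came from males of 551 days, null replicate 2 from a male of 552 days and null replicate 3 from a female of 611 days. In 2 further libraries the title and the strain gave different genotypes. One came from a male of 610 days, called het by its title and null by its strain, and the other from a female of 647 days, called null by its title and wild type by its strain. Both stayed out of every comparison of genotypes and of the comparison of sexes. The blood libraries came from wt, het and null mice, by their titles, with ages within the range of the organ libraries. The library of blood mononuclear cells came from a wt mouse far younger than all the others. Its lack of hepatocytes is therefore not matched in age to the organ libraries.

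Hepatocytes secrete most plasma proteins, among them albumin, transferrin, clotting factors, complement and the apolipoproteins of circulating fat particles. Inside the cell they run the urea cycle, break down amino acids, store and release glucose, oxidise fatty acids and modify drugs and steroids. They are laid out along the liver lobule in zones, with urea and glucose synthesis stronger near the portal vein and glutamine synthetase, bile acid and drug enzymes stronger near the central vein. In mice, growth hormone release and androgens give male and female hepatocytes different sets of secreted proteins and steroid enzymes.

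The members were spread very unevenly over the libraries. The male of 610 days without a genotype group gave 124 of the 183 members (67.8%), or 1.92% of its 6462 passing barcodes (95% exact interval 1.60 to 2.28%). With at most 25% mitochondrial UMIs in members and in the barcodes they were counted among, this share was 0.694% (0.469 to 0.989%), and with any mitochondrial share it was 3.13%. Among the libraries with a genotype, het replicate 2 held 20 members (0.296%, 0.181 to 0.457%) and het replicate 1 held 16 (0.146%, 0.0837 to 0.238%). In wt replicate 3 there were 10 (0.0740%, 0.0355 to 0.136%). The others were near the limit of detection, with 3 members in wt replicate 1, 1 in wt replicate 4, 3 in null replicate 2 and 4 in null replicate 3. The female of 647 days gave 2. None was found in wt replicate 2, where 0 of 24928 allows a share of up to 0.0120%, or in wt replicate 5, where 0 of 996 allows up to 0.301%. Intervals and limits here and below cover counting error only.

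**Figure D1:**
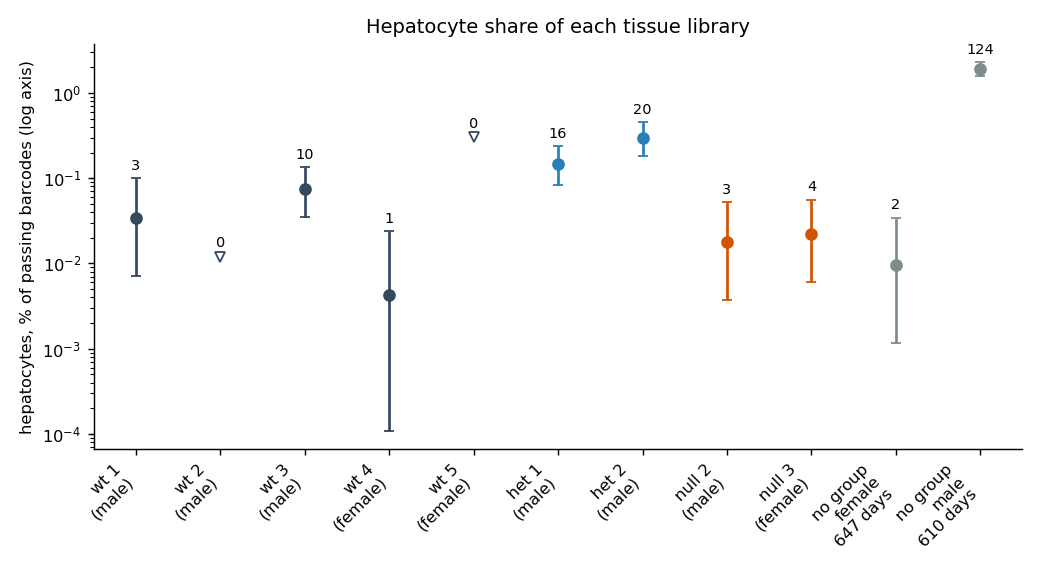
Share of hepatocytes among the passing barcodes of each organ library, on a log axis in percent, with 95% exact binomial intervals and the number of members above each point. Open triangles mark the limit that a count of 0 allows. The male of 610 days without a genotype group stands at 1.92%, above the intervals of all the other libraries, the highest of which is het replicate 2 at 0.296%.

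The share of hepatocytes was compared between the Nalcn-deleted libraries and wt. The male of 610 days was left out, although both of its labels, het and null, fall on the deleted side. At 1.92% it stood above every library compared, and the difference with it included was not tested. The mean was 0.121% ± 0.131 in the 4 het and null libraries and 0.0225% ± 0.0322 in the 5 wt libraries (SD). The ranges overlapped, since both null libraries, at 0.0180% and 0.0219%, lay below wt replicates 1 and 3. The difference of 0.0981 percentage points was within the spread between libraries (exact two-sided permutation test, p = 0.119). Among males alone, with 3 libraries on each side, it was 0.117 percentage points (exact p = 0.300, where no p below 0.100 is possible). When barcodes of any mitochondrial share were admitted, a rule added after the data were seen and 1 of 9 tried, the means were 0.561% and 0.0800% (exact p = 0.0159). That p ran from 0.0179 to 0.0571 when each library was left out in turn, and among males alone it was 0.100, the lowest possible there.

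Female and male libraries with a genotype group were compared in the same way. The 3 such female libraries held 0%, 0.00428% and 0.0219%. The 6 such males held between 0% and 0.296%, with a median of 0.0541%. The male of 610 days, at 1.92%, and the female of 647 days, at 0.00958%, were left out, and including them was not tested. The difference of the means, females minus males, was −0.0861 percentage points (exact two-sided permutation test, p = 0.214). Within wt, the female mean was 0.00214% and the male mean 0.0361% (exact p = 0.400). Planned comparisons of single genes between genotypes and sexes could not be made, because at least 20 members were needed in at least 2 libraries of each group and only het replicate 2 reached that number. With a minimum of 10, wt had 1 such library, het had 2 and null had 0. The levels below are therefore given library by library, with no test.

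Cell quality differed between the libraries. The members held a median of 1753 UMIs, from 505 to 27031, and the median mitochondrial share was 34.0%. It was 37.1% in the male of 610 days, 8.83% in het replicate 1, 15.8% in het replicate 2 and 20.4% in wt replicate 3, and it stood above 50% in both null libraries, at 52.1% and 53.0%. A further 378 barcodes met every limit but the mitochondrial one, with a median mitochondrial share of 88.4%. They were more numerous than the members themselves in both het libraries (57 in het replicate 1 and 67 in het replicate 2), in null replicate 2 (62 against 3 members) and null replicate 3 (31 against 4), and in wt replicates 2 (2 against 0), 3 (28 against 10), 4 (9 against 1) and 5 (1 against 0), as well as in the female of 647 days (3 against 2). The male of 610 days held 116 of them against 124 members, and wt replicate 1 held 2 against 3. Close to the Alb limit, 10 barcodes with 9 UMIs fell outside and 9 with 10 UMIs fell inside. Close to the other limit, 23 barcodes held 3 of the 8 genes and 14 held 4.

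**Figure D2:**
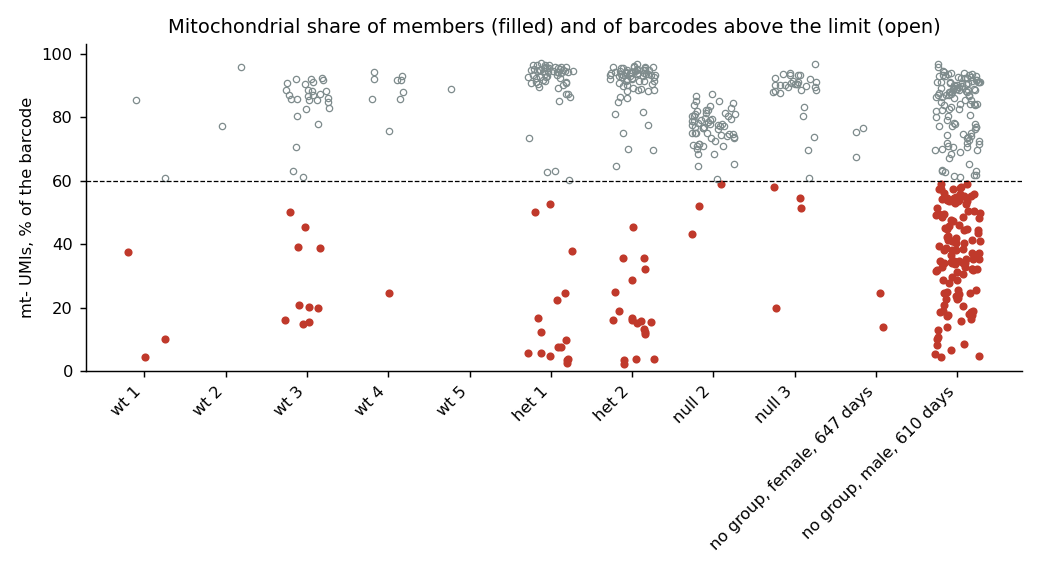
Share of mitochondrial UMIs, in percent, of the 183 members (filled points) and of the 378 barcodes that met every other limit but lay above 60% (open points, the limit being the dashed line), by library. In the male of 610 days members and excluded barcodes form a continuous range, whereas 11 of 16 members of het replicate 1 and 14 of 20 of het replicate 2 lie below 20% and most open points of these libraries lie near the top.

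Some members carried transcripts of other cell types. Of 294 barcodes that passed the liver limits, 111 were left out for Ptprc (54), Pecam1 (26) or Miox (51). Scrublet, a caller of doublets, marked 15 of the 124 members in the male of 610 days, 2 of 20 in het replicate 2 and 0 of 16 in het replicate 1, and these were kept. The share of passing barcodes marked in each library was fixed in advance. It was 8.62% in the male of 610 days, 7.39% in het replicate 2 and 10.3% in het replicate 1. Whether such barcodes were doublets or other cells with free liver RNA was not tested. Another measure, chosen after the values were seen, set marker lists for other organs or cell types, without that of red cells, against 52 genes for secreted liver proteins. By it, 15 of the 183 members held more UMIs of such a list. They were 7 in the male of 610 days, 3 in het replicate 1, 3 in wt replicate 3 and 1 each in het replicate 2 and null replicate 2. In the male of 610 days, 6 members led by the haemoglobin gene Hbb-bs were not among the 15. In the male of 610 days, 1 such barcode of 9719 UMIs was led by Tff1 with 534 UMIs, a secreted peptide of stomach surface cells. In het replicate 1 a barcode of 10894 UMIs held 91 UMIs of Umod, which encodes the uromodulin of the kidney loop of Henle, and 21 of Alb. In het replicate 2 a barcode of 16418 UMIs held 865 UMIs of Msmp and 230 of Spp1, the osteopontin of bile duct cells, and 0 of Fabp1. Of the members, 7 (3.83%) had a barcode sequence that also occurred in another organ library, where it was no member, and over all barcodes of these libraries the share was 4.27%.

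Genes outside the rule were used to check the liver label. B cells, with a UMI of Ptprc and at least 2 of Cd79a, served for comparison. Barcodes that met the limits of Alb and of 4 of the 8 genes were not counted as B cells. The liver transcripts of B cells were thus also limited by the rule. The 52 genes of secreted liver proteins that the rule did not use gave a UMI in all 183 members, with a median of 20 of these genes detected in a member (1 to 47). They summed to 45240 CPM (UMIs per 1000000 UMIs of the summed barcodes) in members of the male of 610 days and 851 in B cells of the same library, and to 7354 against 427 in het replicate 1, 27148 against 729 in het replicate 2 and 27548 against 700.0 CPM in wt replicate 3. Detection of the rule's own genes was fixed in part by the choice of members. Of these, Apoa2 and Ttr were each detected in 96.2% of members, Apoa1 in 93.4%, Serpina1c in 90.7%, Ahsg in 88.5% and Fgb in 82.5%. The 2 intracellular enzymes of the rule were seen less often, in the male of 610 days and in the other libraries with 10 or more members. Cps1, the first enzyme of the urea cycle, was detected in 24.0% of members, and Cyp2e1, an ethanol-metabolising enzyme of the central zone, in 14.8%. Cps1 was found in 18 of 124 members of the male of 610 days and Cyp2e1 in 5, while in het replicate 2 they were found in 10 and 8 of 20, where Fgb was found in 12 and Apoa1 in 14. In het replicate 1 Cps1 was found in 6 of 16, Cyp2e1 in 5 and Apoa1 in 14. In wt replicate 3 these were found in 3, 4 and 9 of 10. Albumin transcripts in B cells gave a measure of the background of free RNA, within that limit, while the level in members was set by the rule. In the male of 610 days, 224 B cells with a median of 1300.5 UMIs held Alb at 198 CPM and 20.1% of them held an Alb UMI, while the members, with a median of 1502 UMIs, held it at 36985 CPM. In wt replicate 3, 52.7% of B cells held an Alb UMI (333 CPM against 27968 in members). Sex chromosome transcripts followed the labels in the members. Xist, the RNA of the inactive X chromosome, was detected in 3 of 4 members of null replicate 3, in the single member of wt replicate 4 and in both of the female of 647 days, and in 0 of the 176 members of male libraries. Nalcn was at 0 UMIs among the 537056 UMIs of all members, which allows up to 5.59 CPM, and Prom1 gave 2 UMIs, both in wt replicate 3, so neither the targeted gene nor its Cre driver could be compared.

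The most abundant transcripts of the members differed by library. Alb encodes serum albumin and Fabp1 encodes a fatty acid-binding protein that stays in the cytosol. Levels are CPM of the summed member UMIs of a library, given with 95% Poisson intervals for the 4 libraries with 10 or more members. These sums include the 15 members with more UMIs of another marker list, red cells left out, than of secreted genes. Without the 15, and with members led by Hbb-bs still in, the 52 secreted genes summed to 49249 CPM in the male of 610 days (45240 with the 15). In wt replicate 3 these genes summed to 41664.5 CPM (27548 with them). The order of close levels, such as Alb in these libraries, can therefore depend on such members. Alb was at 36985 CPM in the male of 610 days, 6636 in het replicate 1, 20163 in het replicate 2 and 27968 in wt replicate 3. In these sums Fabp1 ran the other way, at 1202 CPM (1077 to 1338) in the male of 610 days, 17653 in het replicate 1, 11164 in het replicate 2 and 10690 in wt replicate 3. Counted by barcode, Alb was the leading gene after mitochondrial ones in 66 of the 124 members of the male of 610 days, and Fabp1 led in none of them. In het replicate 1, Fabp1 led in 9 of 16 members and Alb in none. In het replicate 2, Apoa2 led in 5, Alb in 4, Fth1 in 4 and Fabp1 in 3 of 20. Alb was part of the rule, so its level depended in part on the limit and on the size of the barcodes, with a median of 1502 UMIs in the male of 610 days and 3941.5 in het replicate 1. The 2 promoters are shown because Alb led most members of the male of 610 days and Fabp1 most of those of het replicate 1. Both come from RefSeq, on the plus strand of GRCm38.p6. They begin 250 bases before the RefSeq start, and that of Fabp1 is printed only up to the earlier GENCODE start. Capitals mark GTTAAT, the core of the site of HNF1, a liver transcription factor. It was the only motif searched, on both strands, and was found in 6.43% of all 32851 promoters over the 250 bases before the start. It lay once in each printed sequence, 32 bases before the RefSeq start in Alb and 107 bases before it in Fabp1. Alb lies on the plus strand of chromosome 5 (90460897 to 90476602) and Fabp1 on the plus strand of chromosome 6 (71199827 to 71205023), both in GENCODE M21.
Alb promoter, chr5:90460620-90460869: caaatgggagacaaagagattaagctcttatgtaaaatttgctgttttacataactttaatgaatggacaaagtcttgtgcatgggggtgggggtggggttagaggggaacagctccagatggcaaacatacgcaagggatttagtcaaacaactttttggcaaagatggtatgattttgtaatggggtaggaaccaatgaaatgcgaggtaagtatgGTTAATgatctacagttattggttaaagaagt
Fabp1 promoter, chr6:71199629-71199826: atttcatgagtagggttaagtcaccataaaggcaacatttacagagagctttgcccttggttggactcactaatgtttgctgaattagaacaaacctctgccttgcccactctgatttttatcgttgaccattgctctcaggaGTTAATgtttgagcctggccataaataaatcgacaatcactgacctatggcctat

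**Figure D3:**
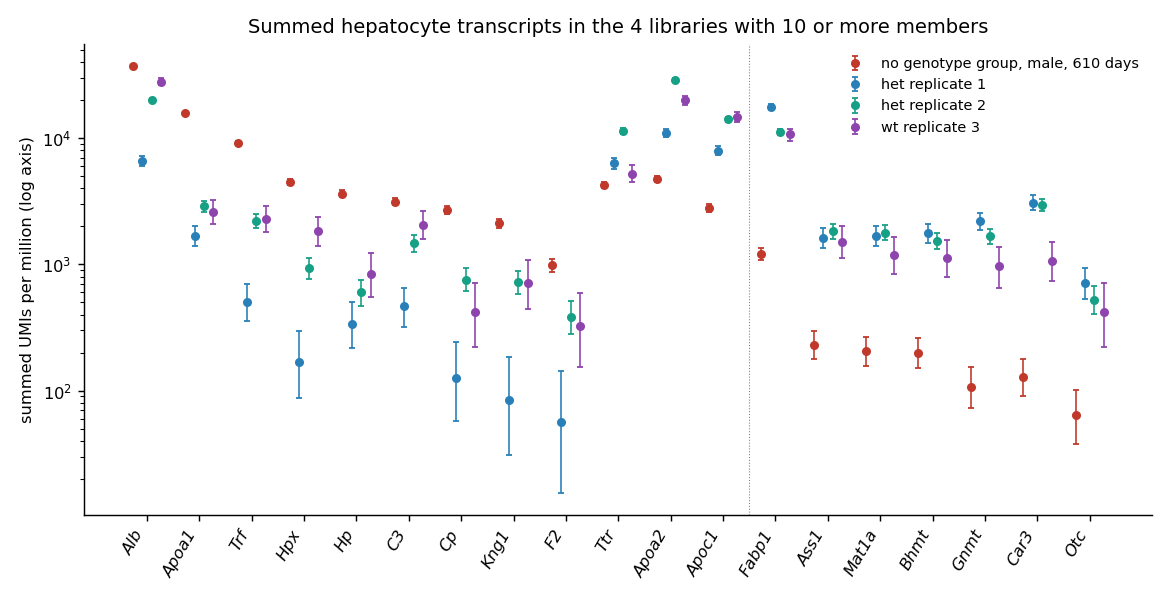
Levels in CPM of the summed member UMIs, on a log axis, of 12 genes for secreted proteins (left of the dotted line) and 7 genes for proteins that stay in the cell (right), in the 4 libraries with 10 or more members. Bars are 95% Poisson intervals of the count. Members led by another marker list are included. The male of 610 days lies above the other 3 libraries for Alb, Apoa1, Trf and Hpx. It lies below them for the secreted Ttr, Apoa2 and Apoc1 and for all 7 intracellular genes, with overlapping bars for Ttr in wt replicate 3.

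Some secreted liver proteins were high in the male of 610 days and others were low. Trf, the iron carrier of plasma, stood at 9104 CPM there, 507 in het replicate 1, 2206 in het replicate 2 and 2293 in wt replicate 3, and it was detected in 122 of the 124 members. Hpx, which binds free haem, was at 4463, 169, 932 and 1841 CPM in the same order. Apoa1, the main protein of high-density lipoprotein and one of the rule's genes, was at 15774, 1691, 2880 and 2616 CPM. Ttr, another rule gene, was lowest there, at 4241 CPM against 6312, 11364 and 5232. The same held for Apoc3, at 1773 against 1902, 5869 and 5813, and for Rbp4, at 2547 against 2663, 5686 and 3230. The counting intervals overlapped with wt replicate 3 for Ttr, with het replicate 1 for Apoc3 and with both of these libraries for Rbp4. Of 1890 genes with at least 30 UMIs over the 4 sums, 54 (2.86%) were at least 2-fold higher in the male of 610 days than in each of the other 3 libraries and 233 (12.3%) were at least 2-fold lower, and the median log2 ratio over these genes against the 3 pooled was −0.51. In this measure, counts under 3 on the side that had to be lower were set to 3. That floor is 96.9 CPM in wt replicate 3 and 10.7 CPM in the male of 610 days. Higher calls were thus harder to reach than lower ones. Afp, at 189 CPM against 0 in the other libraries, could not be called. The part of the floor in the balance was not tested. The balance also depended on the members and libraries used. With members of any mitochondrial share, 124 genes were higher and 44 lower, and without wt replicate 3 there were 134 and 423. With totals centred on the median ratio, 117 genes (6.19%) were higher and 109 (5.77%) lower, and calls that centring changed are given beside the lists of secreted proteins, enzymes and transcription factors below. Of 43 tested genes of the secreted lists (plasma carriers without Fabp1 and Ttpa, coagulation and complement), 9 were higher and 0 lower, with 17 and 0 after centring. No test was possible between single libraries. Among the 16 plasma carriers measured, Trf, Hpx, Cp, Apom, Pzp and Mug1 were higher by that measure, while Fabp1 and Ttpa, which are carriers inside the cell, were lower (after centring Vtn was also higher and Ttpa no longer lower). Of 16 coagulation genes, F2, F12 and Kng1 were higher, joined after centring by F5, Serpind1 and Serpinf2, with Kng1, the precursor of bradykinin, at 2123 CPM against 84.5, 724 and 711. None of 13 complement genes met the measure in either direction, with C3 at 3143 CPM against 465, 1465 and 2067, although the median log2 ratio of that list was 0.91. After centring, C3, C4b, Cfi and C1s1 were higher.

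Acute phase proteins, which the liver releases in inflammation, were mixed. Hp, the haemoglobin-binding haptoglobin, was at 3624 CPM in the male of 610 days, 338 in het replicate 1, 599 in het replicate 2 and 840 in wt replicate 3, and Lcn2, Itih3 and Apcs were also at least 2-fold higher than in each of the others, as were Saa1 and Itih4 after centring. Hamp, which encodes the iron hormone hepcidin, was lower at 53.5 CPM against 676, 2756 and 549. Orm1 stood at 285 CPM there, 366 in het replicate 1, 957 in het replicate 2 and 1260 in wt replicate 3. Apolipoproteins also moved apart from one another. Apoa4 and Apom were higher by the 2-fold measure, and Apoa4 was at 2950 CPM with a UMI in 102 of 124 members, against 0, 16.7 and 0 CPM, where a count of 0 allows up to 42.3 CPM in het replicate 1 and 96.9 in wt replicate 3. Apoa2, a rule gene, went the other way at 4769 CPM against 11031, 28796 and 19894, and Apoc1 stood at 2807 against 7946, 14144 and 14824. After centring, Apob was also higher, and neither Apoa2 nor Apoc1 was lower by the measure. Apoe was not set apart, at 13431 CPM against 3677, 19589 and 8009.

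Enzymes of the urea cycle and of amino acid and glucose metabolism were low in the male of 610 days. Of 8 urea cycle genes, Otc, Ass1, Arg1 and Gls2 were at least 2-fold lower than in each of the other libraries. Ass1, which makes argininosuccinate, was at 232 CPM (179 to 296) there, 1620 in het replicate 1, 1823 in het replicate 2 and 1518 in wt replicate 3. The same held for 11 of 16 amino acid genes, 4 of 8 glucose genes and 4 of 12 genes of fatty acid oxidation, beside 12.3% of all genes. After centring, 3 urea cycle genes (without Arg1), 8 amino acid genes, 3 glucose genes and 2 genes of fatty acid oxidation were lower, beside 5.77% of all genes. Glul was then higher, with 49 of its 55 UMIs in 1 member. Gnmt, a methyl-group regulator that is abundant in liver cytosol, was at 107 CPM against 2198, 1665 and 969. Null replicates 2 and 3, from 6 and 12 UMIs of the urea cycle list, stood at 1244 CPM (457 to 2708) and 1659 CPM (857 to 2898) for its sum, and the intervals of both overlapped that of the male of 610 days, at 885 CPM (778 to 1002). For the amino acid list they did not, with 3525 CPM (2053 to 5644) in null replicate 2 and 3318 CPM (2126 to 4937) in null replicate 3 against 1548 CPM (1406 to 1701). The glucose and fatty acid lists overlapped in null replicate 2 and not in null replicate 3. Other enzyme lists were less set apart. Of 17 drug-metabolising enzymes, Cyp2c37, Cyp2c50, Cyp2f2 and Gsta3 were lower and Ces1c was higher, with a median log2 ratio of −0.30 (after centring, Gsta3 was no longer lower and Cyp2c70 was also higher). Of 8 genes of lipid synthesis and droplets, only Thrsp was lower. Cholesterol synthesis showed no lower gene, with 0 of 9 genes either higher or lower, a median log2 ratio of 0.33 and only Cyp51 higher after centring. Of the transcription factors of the liver, Hnf4a was at 107 CPM against 127, 167 and 161, a difference within the counting intervals, while Cebpa and Nr1i3 were at least 2-fold lower (after centring, only Nr1i3).

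The balance of both kinds of transcript was then counted in each member. The 52 secreted genes (plasma carriers, coagulation and complement, without Fabp1 and Ttpa, which stay in the cell, and with no gene of the rule among them) gave 12682 UMIs in the male of 610 days and the 39 enzyme genes (urea cycle, amino acids and glucose, also without the rule's genes) gave 1035, a ratio of 12.3 (11.5 to 13.1). It was 0.371 (0.335 to 0.410) in het replicate 1, 1.40 in het replicate 2 and 2.096 in wt replicate 3. With Fabp1 and Ttpa kept, the ratio was 12.6 in the male of 610 days, 1.27 in het replicate 1, 1.998 in het replicate 2 and 2.93 in wt replicate 3. The ratio was 0.309 in wt replicate 1, 0.858 in wt replicate 4, 2.31 in null replicate 2, 2.67 in null replicate 3 and 1.31 in the female of 647 days. Secreted UMIs outnumbered enzyme UMIs in all 124 members of the male of 610 days and in 31 of the 59 members of the other 8 libraries. The ratio differed with the mitochondrial share in some libraries. It was 5.80 in the 6 members of the male of 610 days with at most 10% mitochondrial UMIs, 9.27 in the 30 with at most 25% and 14.5 in the 94 above 25%. In null replicate 3 it was 0.556 in the 1 member at or below 25% and 4.71 in the 3 above, and in het replicate 1 it was 0.342 and 2.29 on either side. The intervals of both sides overlapped in wt replicate 3 (2.07 and 2.52) and in wt replicate 1, where the order was the other way (0.338 and 0.233). In het replicate 2 the ratio was 1.36 at or below 25% and 1.66 above. With members of any mitochondrial share, the ratio was 10.7 in the male of 610 days, 1.81 in het replicate 1, 2.23 in het replicate 2 and 3.27 in wt replicate 3. At or below 10%, het replicate 1 stood at 0.402 (9 members) and het replicate 2 at 0.650 (4 members), both under the 5.80 of the male of 610 days. Each of these values includes members led by another marker list. In het replicate 2, the barcode of 16418 UMIs gave 135 of the 225 secreted UMIs. The part of the mitochondrial share in these values was not tested.

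**Figure D4:**
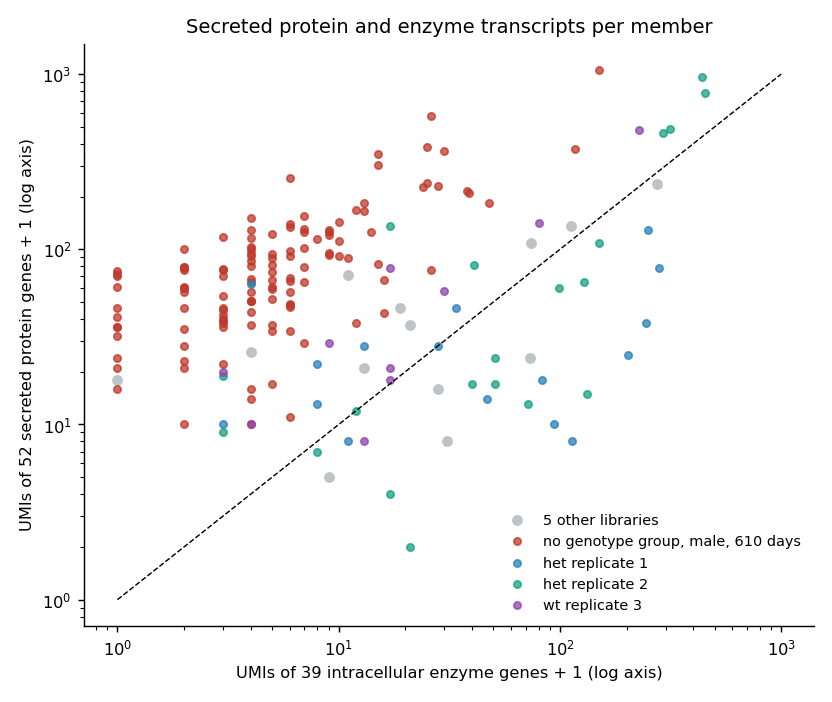
UMIs of 52 secreted protein genes against UMIs of 39 intracellular enzyme genes in each of the 183 members, both plus 1 on log axes, with 1 point for each member and equality as the dashed line. All 124 members of the male of 610 days lie above the line, while 10 of 16 members of het replicate 1 and 12 of 20 of het replicate 2 lie on or below it.

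Other transcripts separated the same library. Haemoglobin genes gave 24343 CPM in the male of 610 days against 409, 83.3 and 96.9 CPM, and Hbb-bs was found in 75 of its 124 members, 3 of which held 74.5% of its UMIs. Gm42418, which overlaps ribosomal RNA, stood at 27906 CPM against 8467, 2964 and 6459, and the nuclear RNA Malat1 at 11240 against 5424, 7767 and 5232, which met the 2-fold measure only after centring. Of the 54 genes higher there, 12 drew over 50% of their UMIs from 1 member. They included Tff1 (97.6%), Gkn1 (98.4%) and Pgc (93.5%) of the stomach. By contrast, Mup20, a major urinary protein, gave 826 UMIs spread over 89 members (2947 CPM against 0, 117 and 0). Reads of single Mup genes cannot be told apart with certainty, and the family sum of 21 genes was 3546 CPM against 366, 849 and 1292. Afp, the fetal albumin relative, was detected in 32 of the 124 members with 53 UMIs, and in none of the members of both het libraries and wt replicate 3. Markers of neighbouring liver cells were also counted in these libraries. The defining genes Stab2 and Lyve1 of the sinusoidal endothelium and Clec4f, Cd5l and Vsig4 of Kupffer cells were at 0 UMIs in every member, and the 7 endothelial genes summed to between 35.7 and 74.9 CPM in the 4 libraries. The 9 genes of Kupffer cells and macrophages reached 549 CPM in wt replicate 3 and at most 17.8 CPM in the other 3. Barcodes with a Pecam1 or Ptprc UMI had been left out, so low endothelial and Kupffer counts were fixed in part by the choice of members. No bile duct marker was part of that choice. Genes listed as bile duct markers were higher, since 6 of them summed to 2333 CPM in the male of 610 days, 1254 in het replicate 1, 2248 in het replicate 2 and 96.9 in wt replicate 3. Most of that was Spp1, with 583 UMIs in the male of 610 days, 88.5% of them in 3 of the 28 members with a UMI, and 230 in 1 member of het replicate 2. In het replicate 1 all 49 UMIs of Spp1 lay in the barcode with Umod, and 11 of the 12 of Krt19 lay in a barcode led by Clu with the epididymal genes Defb20 and Spink8. Stellate cell and fibroblast markers, 6 genes, summed to 1986 CPM in het replicate 1, where Dcn gave 119 of the 141 UMIs in 3 members, and to 49.9, 0 and 0 CPM in the male of 610 days, het replicate 2 and wt replicate 3. A single barcode of het replicate 1, led by Gsn, held 139 of the 141. The part of these cells in the levels above was not tested.

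Genes known to differ between male and female liver were counted next. Within the library of the male of 610 days, 24 male-biased genes held 1172 UMIs and 26 female-biased genes 221, so that the female-biased share was 15.9%. Mup20 gave 826 of the male-biased UMIs, and without it the share was 38.98%. It was 81.4% in het replicate 1 and 88.6% in het replicate 2, both also male, and 60.7% in wt replicate 3. In the other male libraries, wt replicate 1 and null replicate 2, there were few UMIs, and 6 of 10 and 10 of 13 such UMIs were female-biased. In the female libraries it was 91.8% in wt replicate 4, 77.8% in null replicate 3 and 89.5% in the female of 647 days, from 18 to 57 UMIs each. Hamp2, a hepcidin gene beside Hamp, carried much of the value in het replicate 2, with 598 of 945 female-biased UMIs, and without it the share was 74.0% there and 79.5% in het replicate 1. Members of both het libraries carried Y-linked transcripts (11 and 9 UMIs) and no Xist. The sulfotransferase family Sult2a, which acts on steroids and bile acids, was at 3550 CPM in het replicate 1, 1973 in het replicate 2, 420 in wt replicate 3 and 10.7 in the male of 610 days. Cyp2a4, a testosterone hydroxylase that is also on the female-biased list, was the 1 gene of 8 tested on that list that was higher by the 2-fold measure, beside 3 that were lower (Sult2a2, A1bg and Hamp2), at 453 CPM in the male of 610 days and 0, 8.33 and 0 CPM elsewhere. Over all genes, 2.86% were higher and 12.3% lower. Of 5 male-biased genes tested, Mup20 was higher and none was lower, and after centring Serpina1e was also higher.

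Zones of the lobule were counted in 30 members that held at least 20 UMIs of 20 pericentral and 15 periportal genes, none of them used in the rule. The pericentral share ran from 12.2% to 99.6% with a median of 47.6%. Its 95% exact interval lay above 50% in 7 members and below it in 9. The 30 included members with few liver transcripts. A barcode of 6045 UMIs in het replicate 1 held 12 UMIs of Cyp2f2, 14 of Aldh1a1 and 15 of Alb and none of Fabp1, and one of 7294 UMIs in the male of 610 days held 161 of Spp1, 17 of Alb and none of Apoa1, Apoa2 or Fabp1. Their shares of 51.4% and 47.6% were in neither of these groups. The most periportal member, in het replicate 2, held 12 UMIs of Ass1 and 4 of Pck1, which opens glucose synthesis, and none of Glul. Both zones were found within a single library. In het replicate 2 the 10 such members ran from 12.2% to 97.2%, and in wt replicate 3 the 4 ran from 30.4% to 93.2%. In het replicate 1 the 8 ran from 16.7% to 65.7% and none lay above 50% by its interval, while 4 lay below.

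**Figure D5:**
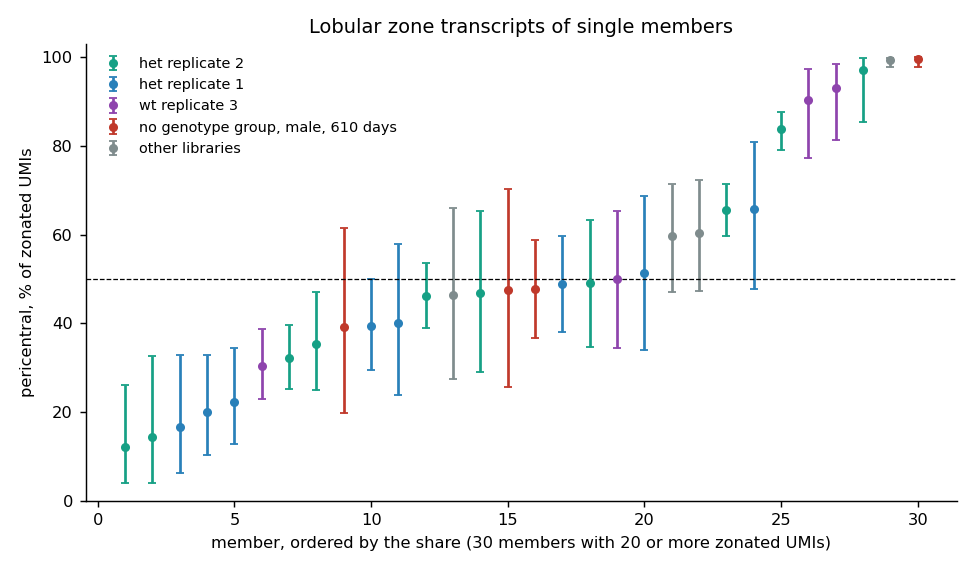
Pericentral share of the zonated UMIs, in percent, in each of the 30 members with at least 20 such UMIs, ordered by the share, with 95% exact binomial intervals and colours for the libraries. The share runs from 12.2% to 99.6%, and members of het replicate 2 and wt replicate 3 lie on both sides of 50%, the dashed line.

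Glul, the glutamine synthetase that clears ammonia in the last cells before the central vein, was found in few members. It was detected in 15 of the 183, and 2 of them held 142 of all 160 UMIs. The single member of wt replicate 4, of 7013 UMIs, held 93 UMIs of Glul, 96 of Oat, the ornithine aminotransferase of the same zone, 42 of Cyp2e1, 38 of Cyp2c29 and 13 of Cyp1a2, and none of Ass1, Pck1, Hal, Cyp2f2 or Cps1. Its pericentral share was 99.3% (97.9 to 99.9%). A member of the male of 610 days, the largest there with 20910 UMIs, held 49 UMIs of Glul, 29 of Oat, 50 of the glutamate transporter Slc1a2, 40 of Gulo, which makes vitamin C, and 12 of Axin2, a target of Wnt signals, and its pericentral share was 99.6% (97.9 to 99.99%). It differed from the member of wt replicate 4 in the drug enzymes, with 17 UMIs of Cyp2e1 and 0 each of Cyp1a2, Cyp2c29, Cyp2c37, Cyp2c50 and Cyp3a11. It held 0 UMIs of Fabp1 and 1 of Apoa2, with 194 of Alb. The same barcode held 142 of the 148 UMIs of Gadd45g in that library, a growth arrest gene, 65 of the 71 of Gadd45b and 59 of the 88 of Ly6d. Only 5 of the 124 members of that library held any Glul.

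The largest members showed how far single barcodes differed. In het replicate 2, a member of 27031 UMIs held 1226 UMIs of Apoa2, 589 of Alb, 439 of Fabp1 and 322 of Hamp2, and another of 20253 UMIs held 1047, 695, 251 and 212. Both were mostly pericentral, at 83.8% and 65.7%. In the same library, members of 12975 and 12379 UMIs held 31 and 2 UMIs of Hamp2 and 0 of Cyp2e1, and their pericentral shares were 32.2% and 46.3%. A member of 13515 UMIs in the male of 610 days, with 6.54% mitochondrial UMIs, held 1379 UMIs of Alb, 327 of Apoa1, 212 of Trf, 114 of Mup20 and 45 of Fabp1, and no Hamp2. In wt replicate 3, a member of 8837 UMIs held 513 UMIs of Alb, 11 of Apoa1, 44 of Trf, 135 of Fabp1 and 0 of Mup20.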

How the data were processed

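The authors dissociated each organ with enzymes (the liver with collagenase and dispase), pooled hashtagged cells and counted 10x Genomics 3′ libraries against mm10; the deposited values are raw UMI counts per gene and barcode (Cell Ranger 3.0.2 in the matrix headers, 2.1.1 in the submitters' processing notes). Tissue libraries held 8571019 to 139793927 UMIs. Members and gene lists were chosen with earlier results of these data known. Member counts were summed per library and scaled to 1000000 (Python 3.11.15, numpy 2.4.6, scipy 1.17.1). Shares were compared over libraries by exact permutation, and intervals are 95% Clopper-Pearson or Poisson. A count of 0 was bounded at 3 counts. The planned edgeR models could not be fitted, since too few libraries held 20 members. Levels were set side by side in libraries with at least 10 members by a 2-fold measure. It was tried on simulated counts that varied by counting error only. With no variation between cells or libraries, that trial cannot judge calls resting on single members or libraries. Scrublet calls were kept as an alternative. Genes named are the 20 most abundant, list members past the 2-fold measure, up to 4 abundant members per list, Nalcn, Prom1, Xist and Y-linked genes; Afp, Umod, Msmp, Ly6d, Tff1 and the genes of single members were chosen after their values were seen. The values of some genes that this rule names are not reported here.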

Additional observations from a re-analysis of the deposited data

Results flagged for a closer look

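The male library of 610 days entered no comparison of genotypes or sexes, because its genotype labels disagree. Both labels, het and null, fall on the deleted side of the comparison with wt. The library held hepatocytes at 1.92% of passing barcodes, above the highest wt library at 0.0740%. A further 378 barcodes met the liver limits but held over 60% mitochondrial UMIs, and blood libraries, which held no member, gave at most 7 Alb UMIs in a barcode. Among the 5 wt libraries no share of hepatocytes stood apart, with a gap of 0.538 of the range against a limit of 0.710.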

How the results depend on the processing

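The difference in hepatocyte share between het and null and wt kept its direction and missed the threshold in 18 of 19 other settings. The exception was the admission of members of any mitochondrial share, added after seeing the data, at 0.481 percentage points (exact p = 0.0159). Males alone, where no p below 0.100 is possible, and the replicate block, with only 12 arrangements, could not have met the threshold. Leaving out each library in turn gave 0.0396 to 0.132 percentage points. The difference between females and males kept its direction in all 18 other settings, from −0.105 to −0.0458 percentage points with each library left out. None of the settings for either difference admitted the male of 610 days or the female of 647 days. The deviations of same-numbered libraries from their group means correlated at −0.478 to 0.0112. In groups of 2 libraries, such as het and null, these deviations mirror each other. The correlations therefore cannot show whether replicate numbers pair the libraries. Permuting within the replicate block gave 0.0724 percentage points for het and null against wt (exact p = 0.500). In the male of 610 days the 2-fold measure named 54 genes higher and 233 lower. With at most 25% mitochondrial UMIs 152 were lower, with Alb at 50 UMIs or more 22 were higher, and with Alb at 1% or more of the UMIs 27 were higher. Keeping barcodes with Ptprc, Pecam1 or Miox gave 117 higher and 141 lower, and members of any mitochondrial share gave 124 higher and 44 lower. Leaving out het 1, het 2 or wt 3 gave 63 to 134 higher and 207 to 423 lower, with 134 and 423 reached without wt replicate 3. Centring the totals on the median ratio of all genes, chosen after seeing the data like the other settings of this measure, gave 117 higher and 109 lower. Numbers of genes tested also changed, from 1034 to 3614, and the cause was not tested. The ratio of secreted to enzyme UMIs in that library lay between 9.27 and 13.98 in all 9 other settings, while members of any mitochondrial share moved het replicate 1 from 0.371 to 1.81. The setting with all deposited barcodes as the denominator leaves this ratio unchanged by definition. Splits of the members, not among these settings, gave 5.80 at or below 10% mitochondrial UMIs and 17.4 under 2000 UMIs in the male of 610 days. The share of that library ran from 0.694% to 3.13%. The planned edgeR and DESeq2 settings were not run, for want of libraries with 20 members. Small member numbers, from 0 to 20 in the libraries with a genotype, limit every level given.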
